A study of Homo sapiens with 8 samples.

Results

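The genes described here encode the proteasome, its assembly chaperones, activators and inhibitor, measured as mRNA in MOLM-13, an established human acute myeloid leukemia cell line. They were taken by name: protein-coding genes whose GENCODE release 29 symbol starts with PSMA, PSMB, PSMC, PSMD, PSME, PSMF or PSMG followed by a digit, with no hyphen in the name. This gave 49 of the 58735 gene IDs in the count files, and 44 of the 49 had at least 10 reads in at least 1 library. PSMC3IP came in by its name alone. It encodes a recombination factor and no proteasome subunit, and it is left out of the role groups and summed levels below but stays in counts and medians over all genes found by the rule.

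The study made MOLM-13 cells resistant to busulfan, a DNA alkylating drug, over successive treatment courses, and grew vehicle cultures beside them. The 4 libraries analysed here are parental MOLM-13 cells (replicate 2, taken as 0 courses) and the vehicle cultures after courses 1, 3 and 5, which received 1% DMSO in place of busulfan. Each group is 1 library of bulk RNA from the same line. The 3 busulfan samples and the other parental sample of the 8 labelled were not analysed here. For the DMSO cultures the labels give no passage number, and nothing says how many cultures stand behind a library, so DMSO, time in culture and passage cannot be told apart.

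The proteasome is the barrel-shaped protease that degrades proteins tagged with ubiquitin. Its core, the 20S particle, stacks outer rings of alpha subunits (PSMA genes), which gate entry, on inner rings of beta subunits (PSMB genes), which hold the proteolytic sites. The 19S cap binds ubiquitin chains, unfolds the substrate with a ring of ATPases (PSMC genes) and releases ubiquitin through non-ATPase subunits (PSMD genes). Dedicated chaperones (the PSMG genes with PSMD5, PSMD9 and PSMD10) assemble these parts, alternative activators (PSME genes) can replace the 19S cap, and PSMF1 is an inhibitor of the core. Blood cells also make immune beta subunits, PSMB8, PSMB9 and PSMB10, which replace the constitutive catalytic subunits. Loss of proteasome activity is known to be answered by NRF1, the product of NFE2L1, which raises transcription of most subunit genes at once.

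The libraries held 56825811, 44795976, 50855326 and 45095954 reads in genes after 0, 1, 3 and 5 courses. Levels are given as CPM, read counts divided by the library's size after TMM scaling, which sets the sizes so that most genes have a ratio near 1. All 8 myeloid leukemia markers were at 5 CPM or more on average and summed to 2595 to 3462 CPM per library, while the 4 erythroid markers had no more than 1 read in any library. The other marker lists summed to at most 4.26 CPM for T cells, 2.69 CPM for B cells, 3.24 CPM for fibroblasts and 40.2 CPM for epithelial cells, the last almost all from KRT8 and KRT18 and highest in the parental library. Counts for reads aligned to several places, which no gene received, made up 13.9%, 15.4%, 14.2% and 21.3% of all counts after 0, 1, 3 and 5 courses. All counts here means those in genes and outside them. Mitochondrial genes took 13.6%, 14.4%, 15.1% and 9.22% of gene counts in the same order. The part of these library differences in the results below was not tested.

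Proteasome mRNA was lowest after DMSO course 1. Summed over the 43 measured genes other than PSMC3IP, it stood at 3128, 2309, 2811 and 3167 CPM after 0, 1, 3 and 5 courses. On the log2 scale these sums differed from parental cells by -0.44 in course 1, with a 95% interval for counting error of -0.45 to -0.43, by -0.15 in course 3 and by 0.02 in course 5. Of the 44 measured genes, 32 had their lowest level in course 1, while 21 had their highest level in course 5 and 17 in the parental library. The matching shares of all genes are not given here. Most of the genes were thus low in course 1, and the sums of courses 3 and 5 were nearer to the parental sum.

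With 1 library at each course, no test of a single pair of libraries is possible. A gene was counted as apart in a pair when its mean over the 4 libraries was at least 5 CPM, its ratio at least 1.5-fold, and an exact binomial 95% interval, which covers counting error only, excluded a ratio of 1. Of the 44 measured genes, 43 reached 5 CPM; PSMC1 did not.

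The vehicle culture with the fewest courses was set against parental cells first. In DMSO course 1 against parental cells, 22 of the 43 genes (51.2%) were lower and 0 were higher. Among all 10710 genes at that level, 14.1% were lower and 12.5% were higher. The median log2 ratio was -0.58 over the measured proteasome genes and 0.02 over all genes. Without PSMC3IP, 21 of 42 were lower, with a median of -0.57. Ratios lay between -1.69 and 0.41, and 38 of the 44 were below 0, where 48.2% of all genes were. The threshold fell inside a dense stretch, since PSMD12 at -0.59 counted as lower and PSMD3 at -0.57 did not.

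**Figure D1:**
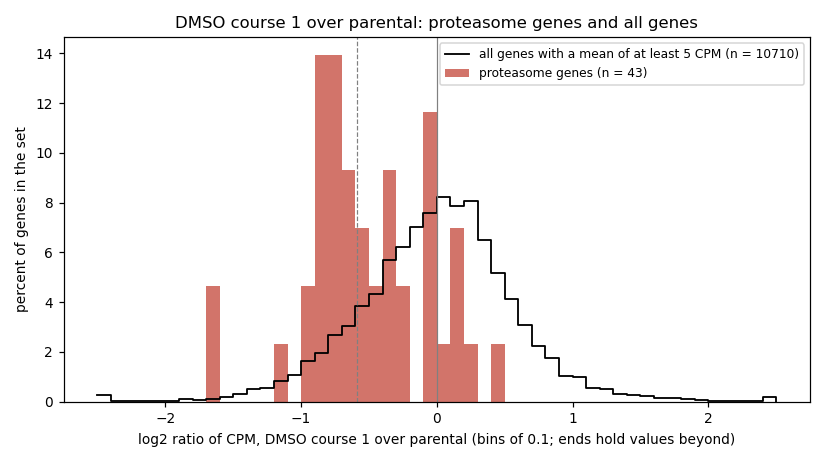
Distribution of the log2 ratio of CPM in DMSO course 1 over parental cells, in bins of 0.1, as a percent of each set: bars for the 43 genes found by name, PSMC3IP among them, and a line for all 10710 genes averaging 5 CPM or more. The dashed line marks 1.5-fold lower. The median was -0.58 over the 44 measured genes, which include PSMC1, not drawn here, and 0.02 over all genes.

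PSME3 and PSMD1 stood furthest below the parental level. PSME3 encodes the nuclear activator REG gamma (PA28 gamma), which opens the core without ubiquitin. It had 118, 36.8, 105 and 128 CPM after 0, 1, 3 and 5 courses. Its log2 ratio to parental cells was -1.69 in course 1 (-1.77 to -1.61), -0.17 in course 3 and 0.11 in course 5. PSMD1, the large scaffold subunit Rpn2 of the 19S base, stood at 55.2, 17.1, 43.3 and 47.1 CPM after 0, 1, 3 and 5 courses. This is a log2 ratio of -1.69 in course 1 (-1.80 to -1.57). PSMG1, which pairs with PSMG2 as the chaperone that starts alpha-ring assembly, stood at 37.7, 17.0, 33.2 and 39.1 CPM, a log2 ratio of -1.15 in course 1 (-1.27 to -1.03). These were the 3 genes more than 2-fold lower in course 1.

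At the other end, PSMD5 and PSMC6 were higher in course 1 than in any other library. PSMD5 encodes a chaperone of the ATPase ring and stood at 65.4, 87.1, 65.6 and 66.6 CPM after 0, 1, 3 and 5 courses, with a log2 ratio of 0.41 in course 1 (0.35 to 0.48). PSMC6, the ATPase Rpt4, stood at 51.8, 60.2, 50.4 and 52.1 CPM, with a log2 ratio of 0.22 (0.14 to 0.29). Neither reached 1.5-fold. Both returned to within 2 CPM of the parental level in courses 3 and 5.

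The sequences upstream of these 5 genes are shown because they are the ends of the range in course 1, and promoter elements known for proteasome genes could be read in them. They are the 250 bases before a RefSeq start of each gene on GRCh38.p14, 5′ to 3′ on the gene's strand. Where a gene had several promoter entries, the first by position along the chromosome was taken, here and in the motif counts below. Capitals mark the letters of TGACNNNGC (the antioxidant or NRF1 core), CCAAT (the NF-Y box), CCGGAAGT (an ETS core) or GAANNTTC (heat shock element), searched on both strands.
PSME3 (chr17:42833147-42833396, plus strand): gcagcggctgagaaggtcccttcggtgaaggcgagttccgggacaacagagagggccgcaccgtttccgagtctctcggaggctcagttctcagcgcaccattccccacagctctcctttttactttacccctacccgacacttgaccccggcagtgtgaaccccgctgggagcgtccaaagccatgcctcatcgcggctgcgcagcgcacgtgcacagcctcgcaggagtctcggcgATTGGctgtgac
PSMD1 (chr2:231056617-231056866, plus strand): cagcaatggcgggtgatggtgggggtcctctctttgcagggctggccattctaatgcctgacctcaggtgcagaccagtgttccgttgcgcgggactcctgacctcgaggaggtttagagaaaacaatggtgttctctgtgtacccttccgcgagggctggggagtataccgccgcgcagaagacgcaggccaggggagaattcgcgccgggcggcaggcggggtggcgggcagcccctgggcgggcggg
PSMG1 (chr21:39183452-39183701, minus strand): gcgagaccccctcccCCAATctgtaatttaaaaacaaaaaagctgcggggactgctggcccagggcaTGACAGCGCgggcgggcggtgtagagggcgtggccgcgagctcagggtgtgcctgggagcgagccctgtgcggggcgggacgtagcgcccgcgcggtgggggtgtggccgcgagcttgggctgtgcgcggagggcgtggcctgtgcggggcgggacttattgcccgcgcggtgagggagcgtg
PSMD5 (chr9:120842923-120843172, minus strand): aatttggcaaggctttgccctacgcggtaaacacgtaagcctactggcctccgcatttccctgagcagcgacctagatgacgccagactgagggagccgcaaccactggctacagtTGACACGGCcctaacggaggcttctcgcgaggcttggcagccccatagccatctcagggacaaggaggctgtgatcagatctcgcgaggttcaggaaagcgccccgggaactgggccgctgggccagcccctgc
PSMC6 (chr14:52706950-52707199, plus strand): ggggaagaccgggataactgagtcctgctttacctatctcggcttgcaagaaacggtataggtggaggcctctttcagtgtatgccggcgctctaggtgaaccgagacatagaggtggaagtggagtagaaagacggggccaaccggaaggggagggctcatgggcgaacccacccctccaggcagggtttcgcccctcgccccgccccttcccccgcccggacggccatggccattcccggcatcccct
The PSME3 window holds a CCAAT match close to its start, and the PSMG1 window holds a CCAAT and a TGACNNNGC match. PSMD5 has a TGACNNNGC match, and none of the 4 motifs is written in the PSMD1 and PSMC6 windows. RefSeq promoters were matched for 38 of the 44 measured genes, of which 19 were lower in course 1 and 19 were not. TGACNNNGC occurred in 9 of the 38 (23.7%), against 10.99% of 27305 promoters of the same length, and in 3 of the 19 lower genes against 6 of the 19 others. CCAAT occurred in 15 of the 38 (39.5%, against 32.9% of all promoters), in 10 of the 19 lower genes and 5 of the others. CCGGAAGT was found in 5 (13.2%, against 3.60%), 1 lower gene and 4 others, and GAANNTTC in 1 window (2.63%, against 5.92%), that of PSMC3IP. PSMC3IP is also among the 19 lower genes and the 10 of these with CCAAT. One pair of matches overlapped. These matches are letters in a window and show no binding.

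Results are given next by role, from the core outwards. In course 1, 5 of the 7 measured alpha genes were apart and lower than in parental cells, with a median log2 ratio of -0.68. PSMA3 stood at 92.8, 50.7, 72.8 and 82.3 CPM after 0, 1, 3 and 5 courses, a log2 ratio of -0.87 in course 1. PSMA7 had the next lowest ratio, -0.86, with 80.4, 44.2, 69.1 and 86.8 CPM.

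PSMA4 and PSMA5 were also lowest in course 1, and slightly above the parental level in course 5. PSMA4 stood at 122.7, 75.0, 113.0 and 131.1 CPM and PSMA5 at 71.0, 44.4, 64.1 and 77.6 CPM after 0, 1, 3 and 5 courses. PSMA2, at 14.8, 9.56, 10.8 and 10.4 CPM, was lower in course 1 and did not come back near its parental level. PSMA1 differed, at 83.2, 83.1, 82.1 and 88.7 CPM, a log2 ratio of 0.00 in course 1. PSMA6 stood at 8.37, 9.31, 8.24 and 7.94 CPM. The alpha ring thus held genes well below the parental level and a gene at that level in the same library.

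Among the constitutive beta genes, 2 of the 6 measured were lower in course 1, and the median log2 ratio was -0.41. PSMB6, the caspase-like catalytic subunit beta1, stood at 42.7, 24.3, 37.6 and 48.5 CPM after 0, 1, 3 and 5 courses, a log2 ratio of -0.81 in course 1. PSMB2, a structural subunit, stood at 98.1, 58.7, 73.2 and 81.2 CPM, a log2 ratio of -0.74. The other catalytic subunits differed less. PSMB5, the chymotrypsin-like subunit that bortezomib binds, stood at 45.7, 33.7, 41.0 and 46.6 CPM (log2 ratio -0.44), and PSMB7, the trypsin-like subunit, at 77.2, 59.5, 66.3 and 74.0 CPM (-0.37). PSMB1 and PSMB4 were near the parental level in course 1, with log2 ratios of -0.07 and -0.05, and somewhat lower later. PSMB1 stood at 141.7, 134.7, 112.4 and 120.9 CPM and PSMB4 at 169.5, 163.5, 141.8 and 149.8 CPM.

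The immune subunits could be followed only through PSMB10. It stood at 34.1, 36.6, 29.5 and 28.8 CPM after 0, 1, 3 and 5 courses, with log2 ratios to parental cells of 0.10, -0.21 and -0.25. It was not low in course 1 under TMM scaling, and its small ratio there turns below 0 when total counts set the scale. PSMB8 and PSMB9, the other immune subunits, were listed at 0 in all 4 libraries. They lie on chromosome 6, where 66 of the 76 protein-coding genes within 1 Mb (86.8%) had fewer than 10 reads in all libraries, against 35.0% of all 19951 protein-coding genes. PSMB3, a constitutive subunit that every cell uses, was also listed at 0 in all libraries, and 20 of the 40 protein-coding genes within 1 Mb of it on chromosome 17 (50.0%) were under 10 reads. These zeros therefore give no level for PSMB3, PSMB8 or PSMB9. PSMA8, known from testis, and PSMB11, known from thymus, had at most 1 and 2 reads in any library.

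**Figure D2:**
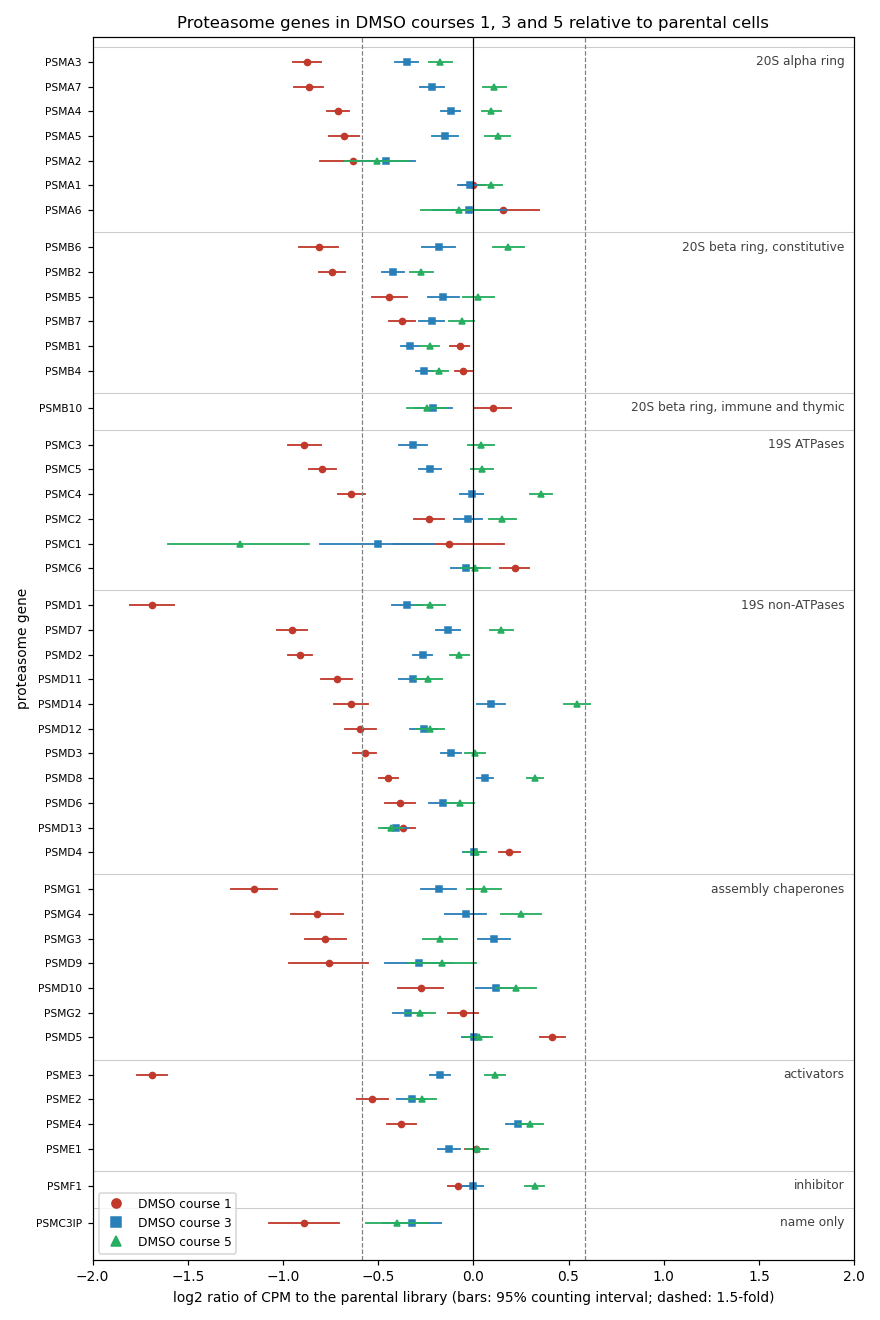
Log2 ratio of CPM to the parental library for the 44 measured genes in DMSO courses 1 (circles), 3 (squares) and 5 (triangles), by role. Horizontal bars are exact binomial 95% intervals for counting error; dashed lines mark 1.5-fold. Course 1 points of 22 genes lie left of the lower dashed line, PSME3 and PSMD1 furthest at -1.69, while PSMC1, below 5 CPM, has the lowest course 5 value at -1.23.

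Of the 6 ATPases of the 19S base, 3 were lower in course 1, with a median log2 ratio of -0.44. PSMC3 (Rpt5) stood at 64.4, 34.8, 51.7 and 66.2 CPM after 0, 1, 3 and 5 courses, a log2 ratio of -0.89 in course 1. PSMC5 (Rpt6) stood at 90.2, 52.1, 77.0 and 93.1 CPM, and PSMC4 (Rpt3) at 82.6, 53.0, 82.2 and 105.7 CPM. All 3 were back at or above the parental level in course 5. PSMC2 (Rpt1) was nearer to the parental level than these in course 1, at 58.4, 49.7, 57.3 and 64.9 CPM.

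PSMC1 (Rpt2) went its own way. It had 252, 168, 151 and 83 reads after 0, 1, 3 and 5 courses, or 4.26, 3.90, 3.01 and 1.82 CPM, with log2 ratios to parental cells of -0.13, -0.50 and -1.23. It has 13 pseudogenes named after it in GENCODE, and PSMC1P1 held 1330, 797, 1097 and 1142 reads in the same libraries. Reads aligned to several places were not counted in genes, and their share was also highest in course 5. The level of PSMC1 is therefore uncertain, and how far shared reads set it was not tested. In all, 32 pseudogenes are named after 12 of the 49 genes. Without those 12 genes, 18 of 33, PSMC3IP among them, were lower in course 1, and the median log2 ratio was -0.64.

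The 19S non-ATPases carry the ubiquitin receptors, the scaffold and the deubiquitinase. In course 1, 6 of 11 were lower and 0 were higher, with a median log2 ratio of -0.59. Besides PSMD1, the lowest was PSMD7 (Rpn8), the partner of the deubiquitinase, at 79.1, 40.8, 72.2 and 87.5 CPM after 0, 1, 3 and 5 courses and a log2 ratio of -0.95. PSMD2 (Rpn1), the other large scaffold, stood at 125.1, 66.6, 104.1 and 118.9 CPM, a log2 ratio of -0.91. PSMD14 (Rpn11), the deubiquitinase that removes ubiquitin chains before degradation, stood at 54.6, 35.0, 58.2 and 79.6 CPM. It had the highest ratio to parental cells of any of the genes in course 5, 0.54 (0.47 to 0.61), short of 1.5-fold.

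The lid subunits PSMD11 and PSMD12 were also lower in course 1, and less so later. PSMD11 stood at 67.3, 41.0, 54.0 and 57.2 CPM and PSMD12 at 64.3, 42.6, 53.6 and 54.8 CPM. PSMD8 stood at 169.6, 124.5, 176.9 and 212.3 CPM, so that it was apart between courses 5 and 1 and not between course 1 and parental cells. PSMD4, the ubiquitin receptor Rpn10, was not low in course 1, at 101.0, 115.1, 101.1 and 101.9 CPM. PSMD13 was lower than parental cells to a similar degree in all DMSO libraries, at 93.9, 72.7, 70.9 and 69.6 CPM.

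Assembly chaperones had wide ratios in course 1. Of 7, 4 were lower, with a median log2 ratio of -0.76, while PSMD5 had the highest ratio of all 44 genes. PSMG4 stood at 25.6, 14.5, 24.9 and 30.5 CPM after 0, 1, 3 and 5 courses. Its partner PSMG3 stood at 41.0, 23.9, 44.2 and 36.3 CPM. Their log2 ratios in course 1, -0.82 and -0.78, were close. The partners PSMG1 and PSMG2 were not alike, since PSMG2 stood at 54.2, 52.2, 42.8 and 44.6 CPM, a log2 ratio of -0.05 in course 1 beside -1.15 for PSMG1. PSMD9, a chaperone of the ATPase ring, stood at 10.95, 6.47, 8.98 and 9.79 CPM, and PSMD10 (gankyrin) at 26.0, 21.4, 28.1 and 30.3 CPM.

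Activators other than PSME3 were not apart from parental cells. PSME1 and PSME2, the interferon-inducible PA28 alpha and beta that form a joint ring, differed from each other in course 1. PSME1 stood at 96.2, 97.1, 88.0 and 97.5 CPM after 0, 1, 3 and 5 courses, a log2 ratio of 0.01 in course 1. PSME2 stood at 59.5, 41.2, 47.6 and 49.3 CPM, a log2 ratio of -0.53. PSME4 (PA200), an activator tied to acetylated histones and DNA repair, stood at 68.0, 52.3, 80.1 and 83.7 CPM, above parental cells in courses 3 and 5 by less than 1.5-fold. PSMF1, the inhibitor PI31, stood at 103.4, 98.0, 103.1 and 129.2 CPM. PSMC3IP, the recombination factor, stood at 14.53, 7.84, 11.63 and 11.015 CPM and was lower in course 1.

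**Figure D3:**
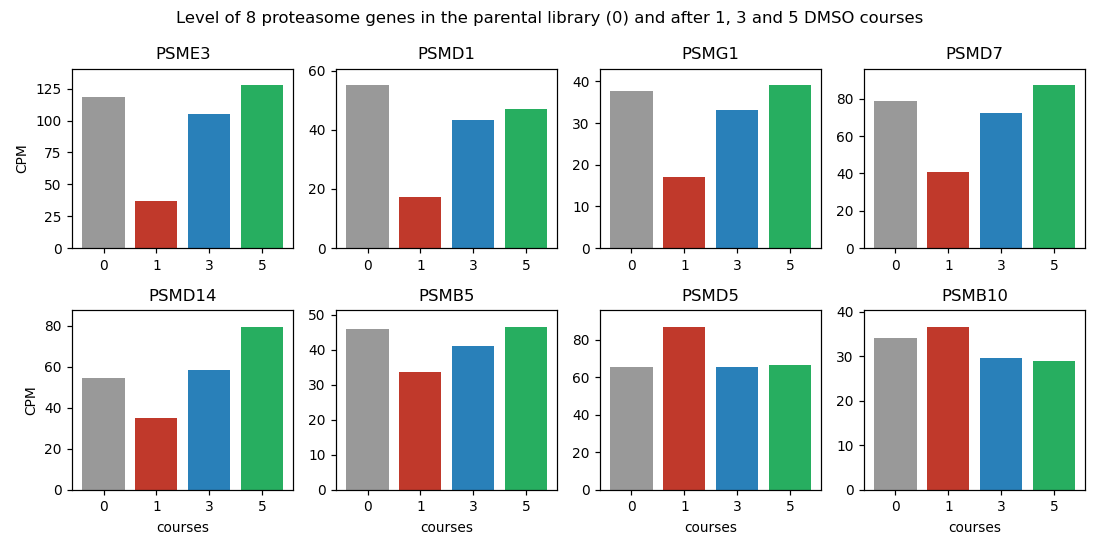
CPM of 8 proteasome genes in the parental library (0, grey) and after DMSO courses 1, 3 and 5, 1 library each; each panel has its own axis from 0. PSME3, PSMD1, PSMG1 and PSMD7 are low in course 1, PSMD14 is highest in course 5 at 79.6 CPM, and PSMD5 is highest in course 1 at 87.1 CPM.

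Later courses were set against parental cells to ask whether the low level lasted. In DMSO course 3, 0 of 43 genes were apart from parental cells in either direction, where 6.57% of all genes were lower and 6.49% were higher. The median log2 ratio was -0.18, and 37 of 44 were below 0, where 48.6% of all genes were. In DMSO course 5, again 0 were apart, where 12.2% of all genes were lower and 11.1% were higher. The median log2 ratio was 0.01, with 24 genes above 0 and 20 below, where 52.9% of all genes were above 0. These comparisons share the parental library with that of course 1.

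Between vehicle cultures, course 3 stood above course 1. Of the 43 genes, 13 (30.2%) were apart and higher in course 3 and 0 were lower, where 13.2% of all genes were higher and 12.7% were lower. The median log2 ratio was 0.40. In course 5 against course 1, 19 (44.2%) were higher and 0 were lower, with a median log2 ratio of 0.49, where 19.3% of all genes were higher and 18.7% were lower. PSME3 had the largest ratio in both, 1.51 in course 3 and 1.80 in course 5, and PSMD1 the next, 1.34 and 1.46. Both comparisons share the course 1 library with that of course 1 against parental cells, so their counts are not separate evidence. In course 5 against course 3, 0 genes were apart, where 0.784% of all genes were higher and 4.29% were lower. Still, 37 of the 44 were above 0, where 54.2% of all genes were. Their median was 0.12 beside 0.02 over all genes, and PSMD14 was highest at 0.45.

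Tests across libraries were run over all genes. In the pooled comparison of the 3 DMSO libraries against the parental library, the quasi-likelihood test of edgeR, adjusted after Benjamini and Hochberg, called 0 of 18612 genes (0%), and 1045 had an unadjusted p under 0.05. None of the 44 proteasome genes was called or had an unadjusted p under 0.05, and their smallest adjusted p was 0.928. DESeq2 called 209 genes and limma-voom 0, with 0 proteasome genes in either. The spread in this fit comes from DMSO libraries of different courses. Of the 44 fitted log2 ratios, 34 were negative, with a median of -0.21 beside 0.02 over all genes.

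The slope over 0, 1, 3 and 5 courses was not called for any gene by edgeR (0 of 18612, or 0%; 2940 with an unadjusted p under 0.05). Among the 44 it was positive for 27 and negative for 17, and 1, PSMC1, had an unadjusted p under 0.05, with an adjusted p of 0.252. DESeq2 called 888 genes and limma-voom 0, again with 0 proteasome genes in either.

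Over the vehicle cultures alone, without the parental library, 16 of the 44 genes rose with the number of courses and 0 fell, at an edgeR adjusted p under 0.05. Of all 15595 genes in this fit, 9.77% rose and 13.6% fell. Slopes of the 16 lay between 0.17 and 0.44 log2 units per course. PSME3 had the steepest, 0.44 ± 0.08 (SE; edgeR adjusted p = 0.00719), and PSMD1 the next, 0.36 ± 0.09 (adjusted p = 0.0192). PSMD14 had the smallest p, with 0.29 ± 0.05 (adjusted p = 0.00572), and 35.0, 58.2 and 79.6 CPM in courses 1, 3 and 5. The others were PSMA3, PSMA4, PSMA5, PSMA7, PSMB6, PSMC3, PSMC4, PSMC5, PSMD2, PSMD7, PSMD8, PSMG1 and PSMG4. DESeq2 called 15 and limma-voom 16, all rising. With DESeq2's size factors in edgeR, 17 rose and 1 fell. Of all 15595 genes, 1295 rose and 1720 fell with DESeq2, and 1515 rose and 2044 fell with limma-voom. With DESeq2's size factors in edgeR, 1863 rose and 2457 fell. This fit has 3 libraries and 1 residual degree of freedom, its p-values measure only the spread of these libraries around a line, and course 1 is the low end of all 16 slopes.

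**Figure D4:**
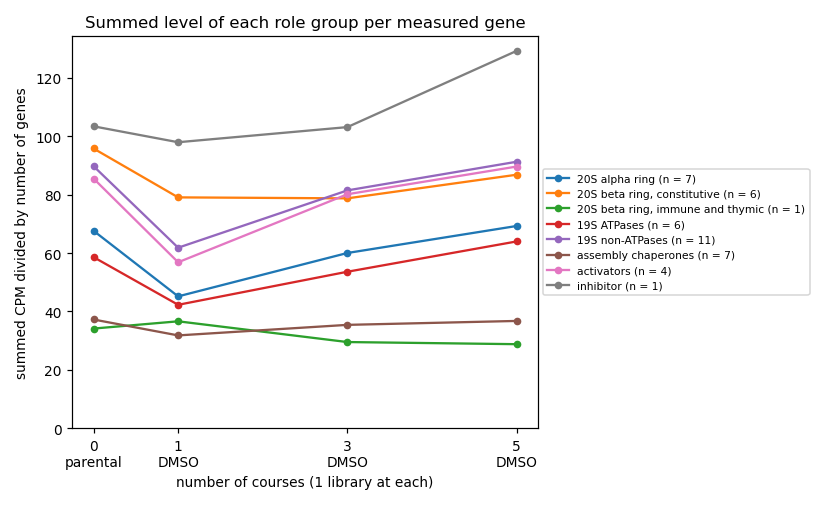
Summed CPM of each role group divided by its number of measured genes, against the number of courses (0 is the parental library), 1 library at each. All groups but the immune subunit, PSMB10, are below the parental library at course 1. The alpha genes sum to 473, 316, 420 and 485 CPM and the activators to 342, 227, 321 and 358 CPM after 0, 1, 3 and 5 courses.

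Summed by role, the groups differed in how far they stood below parental cells in course 1. The log2 ratio of the sum was -0.59 for the activators (-0.62 to -0.55), -0.58 for the alpha ring (-0.61 to -0.55) and -0.54 for the 19S non-ATPases (-0.56 to -0.52). It was -0.47 for the ATPases, -0.28 for the constitutive beta ring, -0.23 for the chaperones and -0.08 for PSMF1. PSME3 was the 1 activator apart in this pair. By gene, the 7 chaperones had a median log2 ratio of -0.76, lower than that of their sum. PSMD5 (0.41) and PSMG2 (-0.05) had the highest CPM among them in parental cells and in course 1. The constitutive beta ring was as low in course 3 as in course 1, with log2 ratios of -0.28 in both.

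Levels of different genes were compared per length, as CPM per kilobase of merged exons, averaged over the 4 libraries. By that length PSMB4 was highest at 72.3, followed by PSMB1 at 56.5, PSMD8 at 55.0 and PSME1 at 53.2 CPM per kilobase. PSMC1 at 0.53, PSMD9 at 1.03, PSMA6 at 1.30 and PSMA2 at 2.14 CPM per kilobase were lowest. The order at the top depends on the length used: per kilobase of the longest transcript PSMD8 came highest at 108.1, then PSME1 at 83.4, PSMD4 at 77.6 and PSMB4 at 75.5 CPM. PSMC1 was lowest by both. PSMC1, PSMA6 and PSMA2 have 13, 4 and 3 pseudogenes named after them. PSMA3, PSMB5, PSMA6, PSMD9, PSMF1, PSMA1, PSMC2 and PSMB10 overlap another read-bearing gene on the same strand, so their counts may miss reads that fit either gene.

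What the low genes shared beyond their name was looked for in transcript properties. Across 43 genes, the log2 ratio of course 1 to parental cells had a Spearman correlation of -0.15 with the GC content of the longest transcript, -0.03 with its length and 0.17 with the level. Over 9760 protein-coding genes the values were 0.07 with GC content, 0.11 with length and 0.10 with the level. These describe genes of the same libraries and are not replicates.

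Subunits and partners of the proteasome with other names were mixed in course 1. Of 13 subunits and partners, 2 were lower in course 1 than in parental cells and 0 were higher, with a median log2 ratio of 0.05. Among all genes, as above, 14.1% were lower and 12.5% were higher, and the same shares apply to the lists that follow. The 2 were ADRM1, the ubiquitin receptor Rpn13, at 52.1, 25.9, 43.7 and 48.4 CPM after 0, 1, 3 and 5 courses, and its binding partner UCHL5, a deubiquitinase, at 88.6, 54.0, 83.2 and 99.99 CPM. The 19S subunit SEM1, at 45.1, 35.9, 33.3 and 34.9 CPM, and the core assembly factor POMP, at 90.8, 63.9, 63.0 and 69.1 CPM, were also below parental cells in course 1, by less than 1.5-fold (log2 ratios -0.33 and -0.51). AKIRIN2, which brings proteasomes into the nucleus, stood at 55.5, 79.3, 84.5 and 95.4 CPM, and ECPAS, a proteasome adaptor, at 104.4, 123.7, 143.7 and 180.8 CPM. Both were apart and higher than parental cells in course 5.

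Of 9 genes for NRF1, its relative NRF2 and NRF1 processing, 1 was lower and 1 higher in course 1. VCP, the ATPase that extracts NRF1 and other substrates from membranes, was the lower, at 185.5, 99.1, 140.1 and 164.5 CPM, and NGLY1, which removes sugars from NRF1, the higher, at 68.7, 103.7, 72.8 and 69.3 CPM. NFE2L1 itself stood at 112.3, 91.3, 140.5 and 190.0 CPM and SEL1L, of the machinery that degrades membrane proteins, at 93.0, 85.6, 123.9 and 189.8 CPM. In course 5, 3 of the 9 were apart and higher than in parental cells, NFE2L1, SEL1L and NFE2L2, which encodes NRF2, where 11.1% of all genes were higher.

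Ubiquitin and shuttle genes had 1 of 13 higher in course 1, UBQLN2, at 24.0, 38.3, 34.0 and 39.6 CPM. Autophagy, the other main route of protein breakdown, had 2 of 9 higher and 0 lower in course 1, with a median log2 ratio of 0.25. SQSTM1, the receptor that carries ubiquitinated cargo to autophagosomes, stood at 174.9, 359.3, 195.0 and 202.7 CPM, a log2 ratio of 1.04, and ATG7, a conjugation enzyme of that route, at 40.1, 65.0, 50.7 and 43.9 CPM. SQSTM1 was thus at its highest level in course 1. Other genes of the autophagy list stood below parental cells there by less than 1.5-fold, with log2 ratios down to -0.45.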

How the data were processed

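RNA was sequenced with a TruSeq kit on an Illumina HiSeq, per the labels' protocols. The authors deposited unnormalised counts of reads for each gene ID. The submitters' processing notes name FastQC 0.11.5, TopHat2 2.0.11, HTSeq 0.6p1 and hg19. All 58735 IDs matched GENCODE release 29, annotated on GRCh38, which leaves the build used for counting uncertain. HTSeq summary rows, 24.6% to 29.8% of all counts, were left out.

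Tests used edgeR 4.0.16 in R 4.3.3, with DESeq2 1.42.0 and limma 3.58.1 as alternatives. TMM factors came from the 18612 genes kept by filterByExpr, and adjusted p-values cover all genes tested. Fits were checked on simulated counts. For ratios, 3 counts stood in for a count of 0. Nothing says that libraries are separate cultures, and p-values measure no more than how these libraries vary. No pair of libraries agreed within counting noise.

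The genes and lists were chosen with earlier results of these data known. Values in every library are given for genes apart in any pair, for catalytic and alternative subunits, activators and the inhibitor. Otherwise they are given for up to 2 genes of a role with the widest range. A few more genes are named to account for their role. Of the partner lists a few genes each are named, all but SEM1 and POMP apart in a pair. Alternatives were other scalings, filters, thresholds, tools and leaving out each library. A further partner list is not reported here.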

Additional observations from a re-analysis of the deposited data

How the results depend on the processing

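No gene that was apart changed direction under the alternatives tried, and none could have. Other scalings shift ratios by much less than 1.5-fold, and other thresholds change no ratio. The pooled comparison and the slope over all 4 libraries called no proteasome gene, so no call could change direction there. Total counts in place of TMM shift log2 ratios to parental cells by -0.11 in course 1, -0.08 in course 3 and -0.04 in course 5. With them the median over proteasome genes was -0.70 in course 1 and -0.25 in course 3, and the summed level was 3257, 2221, 2777 and 3201 CPM after 0, 1, 3 and 5 courses. At a ratio of at least 5 to 4 in place of 1.5-fold, 31 genes were apart in course 1 against parental cells (1 higher, PSMD5, and 30 lower), 9 in course 3 (all lower) and 6 in course 5 (3 higher, 3 lower). Against course 1, 25 were apart in course 3 (24 higher, 1 lower) and 30 in course 5 (28 higher, 2 lower), and 6 in course 5 against course 3 (all higher). At 2-fold, 3 were apart in course 1 against parental cells, and 2 in course 3 and 6 in course 5 against course 1. The shares of all genes given above are for 1.5-fold and 5 CPM. They do not apply to counts at other thresholds, which have no share of all genes beside them here. With a minimum of 1 CPM, 1 gene, PSMC1, was apart and lower in course 5 against parental cells and 1, again PSMC1, against course 3, and it was also lower in course 5 against course 1, beside the 19 higher genes. Without genes that have pseudogenes, chosen after seeing the data, the median of course 5 against course 1 was 0.58. The pooled comparison called 209 genes with DESeq2, 13 with every gene that had a count, and 25 to 1578 without 1 library, the most without course 1. Over the DMSO courses alone, other tools, scalings and filters were chosen after seeing the data. There, testing every gene with a count gave 18 rising and 1 falling proteasome gene. Of all 27200 genes in that fit, 2201 rose and 2625 fell. The trend called 888, 134, and 5 to 3642 genes, the most without the parental library. Leaving out 1 library gave 0 to 16 proteasome genes called in the trend and 0 in the pooled comparison, and where it left the parental arm or a course with 1 library, that library was assumed to vary like the rest. The causes were not tested. No paired analysis was possible because each group has 1 library.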
